A study of Mus musculus with 4 samples.

Results

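Branched-chain amino acid (BCAA) breakdown is described here in mouse hearts at postnatal day 7 (P7) through 10 genes, taken by name from the 24454 genes of the count table and set out in the order of the steps they serve. The rule names the genes and applies no measured value, though the names were picked with earlier results of these data known, and all 10 genes passed the filter on low counts and were among the 14266 genes tested. RNA-seq had been run on hearts in 2 Ctrl libraries (WH7 and WH8) and 2 miR-128OE libraries (WH9 and WH10). The miR-128OE mice carried *α-MHC*-tTA, a transactivator driven by the α-myosin heavy chain promoter of cardiomyocytes (CMs), together with miR-128 TetRE, a *miR-128* transgene placed in the *Rosa26* locus that the transactivator switches on in the absence of doxycycline. The Ctrl mice carried miR-128 TetRE without the transactivator, so effects of the transactivator and of *miR-128* cannot be told apart. Both were on a C57BL/6 background. Heart tissue was sequenced, and the doxycycline schedule of these mice is not given in the sources used here. Nothing states whether a library came from a single heart, so p-values measure the spread between these libraries.

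Leucine, isoleucine and valine are first stripped of their amino group by a transaminase, and the resulting keto acids are then committed to oxidation by the branched-chain keto acid dehydrogenase (BCKDH) complex in the mitochondrial matrix. A dedicated kinase switches this complex off by phosphorylation and a dedicated phosphatase switches it on again. Downstream, leucine is carried towards acetyl-CoA and acetoacetate, valine and part of isoleucine towards propionyl-CoA, which enters the tricarboxylic acid (TCA) cycle as succinyl-CoA. Heart muscle oxidizes BCAAs beside its main fuels, fatty acids, lactate and glucose.

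Library totals ranged from 8096870 to 14359838 counts. The conditions coincided with the sex of the hearts, since the X-inactivation RNA *Xist* was read 14543 and 11339 times in Ctrl against 94 and 132 times in miR-128OE libraries, and Y-linked *Ddx3y* had 13 and 7 against 1442 and 1768. Condition and sex cannot be told apart for any gene below. The *Mir128-2* gene, which encodes a *miR-128* precursor, was at 0 and 0 counts (Ctrl) against 2 and 10 (miR-128OE), whereas *Mir128-1* had 0 counts in all 4, and such libraries do not measure the mature miRNA. Among markers of heart cells, 3 of 6 cardiomyocyte genes passed the test below as higher and 1 as lower, beside 16.5% and 15.0% of all genes tested. The summed level of the 6 genes was 30000 and 30500 CPM (scaled counts per 1000000) in Ctrl and 37100 and 36300 CPM in miR-128OE libraries. *Myh6* had the most counts of the 6 in every library. The log2 fold changes were 0.33 for *Myh6*, 0.76 for *Actn2* and 0.59 for *Pln*, and −0.40 for *Ryr2*. Those of *Tnnt2* (0.12) and *Tnni3* (0.22) did not pass. In such bulk tissue, more cells of a type and more RNA per cell cannot be told apart.

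At an adjusted p-value under 0.05 from edgeR's quasi-likelihood test, 2 of the 10 genes rose in miR-128OE hearts (*Bckdha* and *Pccb*), against 16.5% of all genes tested, and 1 fell (*Mccc1*), against 15.0%, so 3 changed in either direction against 31.5%. The remaining 7 genes did not pass the threshold. These shares lie near the background, so the count as such is no result about the 10 genes. Their log2 fold changes ranged from −0.98 to 0.75 with a median of 0.17, beside a median of −0.014 over all genes tested. Both miR-128OE libraries lay above both Ctrl libraries for 6 of the 10 genes (33.7% of all genes tested) and below them for 1 gene (34.4%), and the libraries of the other 3 genes overlapped. The changed genes sat at separate steps, namely a subunit of the BCKDH complex, a subunit of the leucine-specific carboxylase and a subunit of propionyl-CoA carboxylase.

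**Figure D1:**
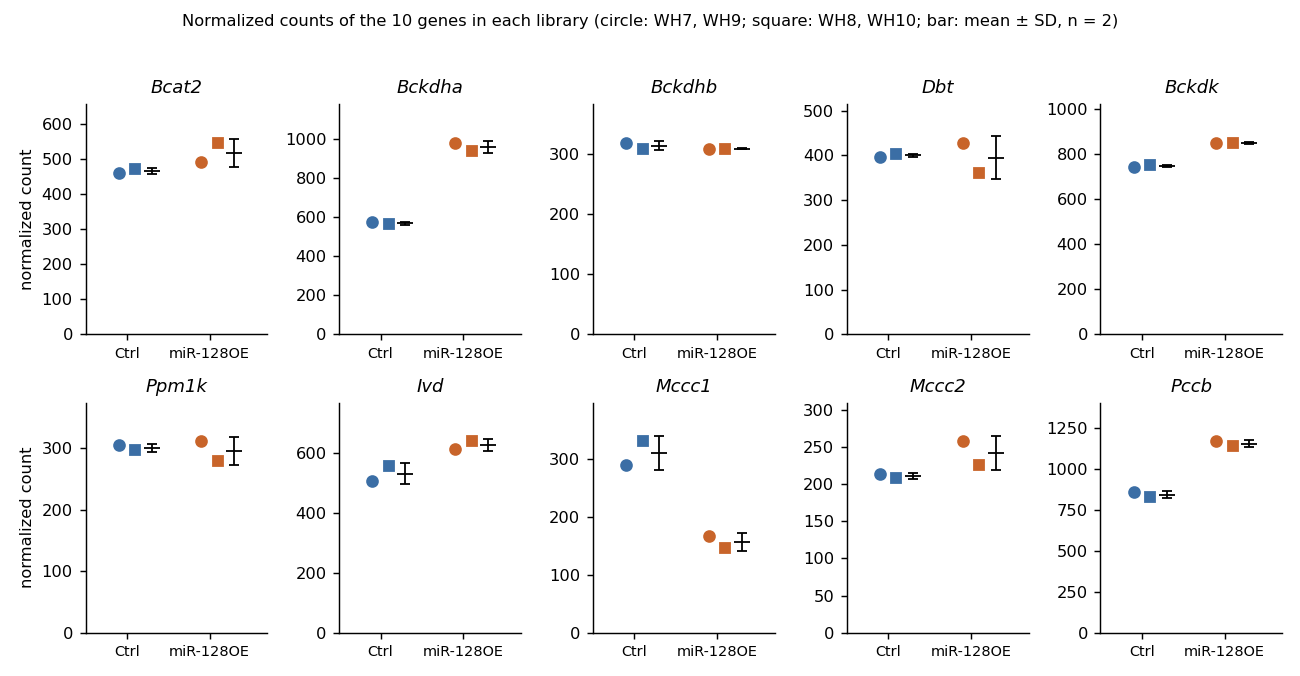
Normalized counts (vertical axes, from 0) of the 10 genes in the 2 Ctrl libraries (blue) and 2 miR-128OE libraries (orange), with the mean ± SD of each group (n = 2) as a black bar. *Bckdha* and *Pccb* are higher in both miR-128OE libraries, *Mccc1* is at 167 and 146 in miR-128OE against 290 and 331 in Ctrl libraries, and the libraries of *Bckdhb*, *Dbt* and *Ppm1k* overlap.

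*Bcat2* (Entrez Gene 12036, chromosome 7 of GRCm38, 45570153 to 45589711) encodes the mitochondrial branched-chain aminotransferase, the enzyme of the first, reversible step. It had 460 and 473 normalized counts (counts scaled by library size and composition to a common depth) in Ctrl (libraries WH7 and WH8, in this order throughout) against 491 and 548 in miR-128OE hearts (WH9 and WH10). The miR-128OE libraries were the higher ones, without overlap, but the step between groups was no larger than the gap between WH9 and WH10. Its log2 fold change (0.16, standard error 0.10, 95% interval −0.071 to 0.38) did not pass the threshold (adjusted p = 0.268). *Bcat1*, the cytosolic form, was scarce, with 74 and 30 raw counts in Ctrl and 80 and 56 in miR-128OE libraries, and its groups overlapped (log2 fold change 0.15, adjusted p = 0.759).

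At the BCKDH complex the subunits gave unlike values. *Bckdha* (Entrez Gene 12039, chromosome 7, 25629946 to 25658981) encodes the alpha subunit of the decarboxylase component, the part that the kinase phosphorylates. It had 574 and 563 normalized counts in Ctrl against 980 and 935 in miR-128OE libraries. The miR-128OE values were well clear of the Ctrl values, and replicates differed little. Its Ctrl mean was 568 ± 8.33 (SD, n = 2) and its miR-128OE mean 958 ± 31.8 (SD, n = 2), a 1.68-fold change (log2 fold change 0.75, standard error 0.085, adjusted p = 0.000319). Of its 1899 exonic bases, 1171 are shared with *B3gnt8* on the opposite strand, and whether the authors' counting used strand is not stated. *B3gnt8* had 67 and 25 raw counts in Ctrl and 60 and 61 in miR-128OE libraries, far fewer than the 398 to 1112 of *Bckdha*. Since it is not stated how reads in shared bases were counted, these counts do not bound the part of *B3gnt8* in those of *Bckdha*.

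*Bckdhb* (Entrez Gene 12040, chromosome 9, 83925145 to 84124240), the beta subunit with which the alpha subunit forms the same component, had 319 and 308 normalized counts in Ctrl and 309 and 309 in miR-128OE libraries. The 4 libraries were close to level, and the log2 fold change was −0.024 (95% interval −0.27 to 0.23, adjusted p = 0.890). *Dbt* (Entrez Gene 13171, chromosome 3, 116513070 to 116549981) encodes the lipoate-bearing transacylase core of the complex. It had 397 and 403 normalized counts in Ctrl and 429 and 361 in miR-128OE libraries, so WH9 lay above and WH10 below both controls (log2 fold change −0.02, 95% interval −0.28 to 0.24, adjusted p = 0.912). The upper ends of both intervals were far below the 0.75 of *Bckdha*. *Dld*, the dihydrolipoamide dehydrogenase that this complex shares with the pyruvate and oxoglutarate dehydrogenases, rose by 0.60 on the log2 scale (adjusted p = 0.000715), from 1840 and 1921 to 2933 and 2756 normalized counts.

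As a ratio of raw counts within a library, which needs no scaling between libraries, *Bckdha* to *Bckdhb* was 1.80 and 1.83 in Ctrl and 3.17 and 3.03 in miR-128OE libraries. The ratio differed between groups by 0.77 on the log2 scale and by at most 0.046 (SD, n = 2) within a group. This ratio and those of *Mccc1* to *Mccc2*, *Bckdha* to *Bckdk* and *Pcca* to *Pccb* were chosen after their values were seen and are given with no test.

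For the switch of the complex, only RNA was measured. The kinase is encoded by *Bckdk* (Entrez Gene 12041, chromosome 7, 127904082 to 127910221). The phosphatase is encoded by *Ppm1k* (Entrez Gene 243382, chromosome 6, 57506502 to 57535468). The activity of these enzymes and the phosphorylation of the complex were not measured. *Bckdk* had 743 and 752 normalized counts in Ctrl and 853 and 849 in miR-128OE libraries. The groups did not overlap and replicates were tight, yet the log2 fold change (0.19, standard error 0.081, 95% interval 0.0057 to 0.37) had an adjusted p of 0.107 and an unadjusted p of 0.0445. *Ppm1k* had 305 and 297 normalized counts in Ctrl and 312 and 279 in miR-128OE libraries, which overlapped (log2 fold change −0.03, 95% interval −0.30 to 0.24, adjusted p = 0.871). The ratio of kinase to phosphatase counts was 2.43 and 2.53 in Ctrl and 2.74 and 3.04 in miR-128OE libraries. It was higher in both miR-128OE libraries, with a log2 ratio of 1.31 ± 0.038 (SD, n = 2) against 1.52 ± 0.11 (SD, n = 2). An exact two-sided permutation test gave p = 0.333, the smallest value that 2 against 2 libraries allow. The count ratio of *Bckdha* to *Bckdk*, the phosphorylated subunit to its kinase, moved from 0.772 and 0.748 to 1.15 and 1.10.

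**Figure D2:**
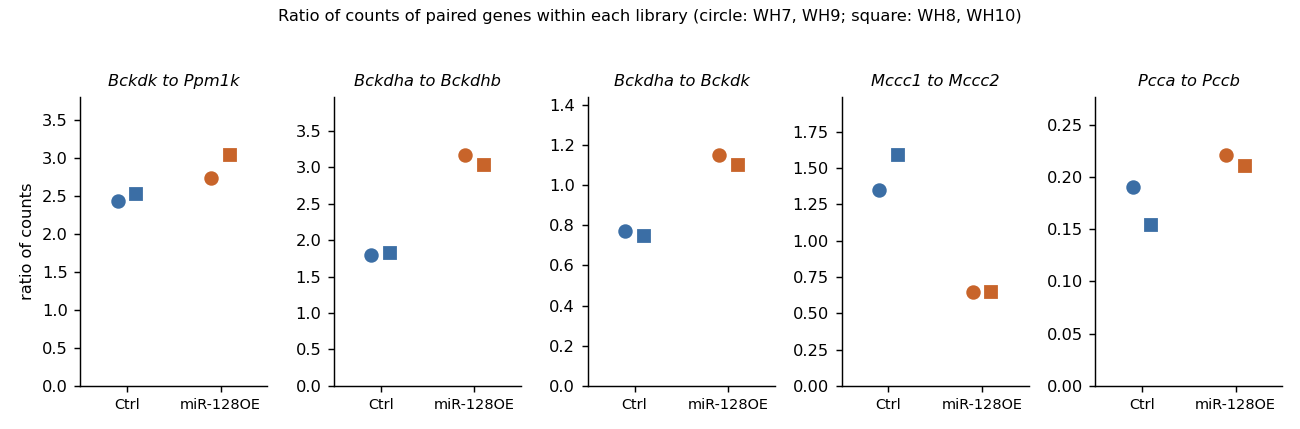
Ratio of raw counts (vertical axes, from 0) of gene pairs within each library, for Ctrl (blue) and miR-128OE (orange). *Bckdha* to *Bckdhb* is 1.80 and 1.83 against 3.17 and 3.03, *Mccc1* to *Mccc2* is 1.35 and 1.59 against 0.648 and 0.643, and *Bckdk* to *Ppm1k* differs less, at 2.43 and 2.53 against 2.74 and 3.04.

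*Bckdk* and *Ppm1k* hold 6 of the 7 matches to the seed of the overexpressed miRNA found among the 10 genes, so these sequences are shown. The mature *miR-128-3p* is given with its seed, bases 2 to 8, in capitals (RefSeq, GRCm38.p6). It is followed by the matches in the longest 3′UTR of *Bckdk* (1910 bases) and *Ppm1k* (4216 bases). They are written 5′ to 3′ on the gene's strand with the 7 bases of the 7mer in capitals. A 7mer-m8 match (CACTGTG) pairs with bases 2 to 8, a 7mer-A1 match (ACTGTGA) pairs with bases 2 to 7 and has an A opposite base 1, and an 8mer would hold both.
mmu-miR-128-3p: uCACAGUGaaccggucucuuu
Bckdk, 7mer-m8, chr7:127908718-127908724: tgtcctggCACTGTGgcagaagt
Bckdk, 7mer-m8, chr7:127908971-127908977: tgcctgccCACTGTGgctgcaaa
Ppm1k, 7mer-A1, chr6:57509462-57509468: actgtcaaACTGTGAatccctga
Ppm1k, 7mer-A1, chr6:57507034-57507040: tttccattACTGTGAgggttccc
Ppm1k, 7mer-m8, chr6:57506704-57506710: aaagtcacCACTGTGgtataacc
Ppm1k, 7mer-A1, chr6:57506564-57506570: ctagaataACTGTGAacaaacta
Neither gene passed the threshold. The log2 fold change of *Bckdk* was 0.19 (interval 0.0057 to 0.37). That of *Ppm1k* was −0.03, with an interval (−0.3 to 0.24) that includes both a fall and a rise. An effect of *miR-128* on either RNA was not tested. *Mccc2* carried 1 match in a 3′UTR of 309 bases:
Mccc2, 7mer-A1, chr13:99948705-99948711: ttgttaaaACTGTGAaaatcagt
The other 7 of the 10 genes, *Mccc1* among them, had 0 matches in the longest 3′UTR of GENCODE M21 protein-coding transcripts. Over all genes tested with such a 3′UTR, 4180 of 13489 (31.0%) carried a match, so 3 of 10 is near the background. A match is a description of letters and not a shown site of binding.

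In the leucine branch, *Ivd* (Entrez Gene 56357, chromosome 2, 118861954 to 118882909) encodes isovaleryl-CoA dehydrogenase, which passes electrons to the respiratory chain. It had 506 and 555 normalized counts in Ctrl and 613 and 640 in miR-128OE libraries, which were the higher ones without overlap. Its log2 fold change (0.24, standard error 0.095, 95% interval 0.031 to 0.46) had an adjusted p of 0.0781. The call depended on the setting, since the adjusted p was 0.0477 with an offset for GC content and length and 0.0287 without Ctrl library WH8.

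Methylcrotonyl-CoA carboxylase, the biotin-dependent next step of leucine breakdown, is built from a biotin-carrying alpha subunit encoded by *Mccc1* and a beta subunit encoded by *Mccc2*. *Mccc1* (Entrez Gene 72039, chromosome 3, 35959312 to 36000678) had 290 and 331 normalized counts in Ctrl against 167 and 146 in miR-128OE libraries. Both miR-128OE values were far below both Ctrl values. The Ctrl mean of 310 ± 28.9 (SD, n = 2) stood against a miR-128OE mean of 156 ± 15.4 (SD, n = 2), a fall of −0.98 ± 0.14 (standard error) on the log2 scale (adjusted p = 0.00104), and 4.74% of all genes tested had a lower value. It was the only gene called lower among the 25 enzymes and regulators of the pathway that were measured here. Of its 10952 exonic bases, 321 are shared with the processed pseudogene *B230207O21Rik*, 198 with *Mccc1os* and 94 with *Gm15952*, all on the opposite strand. *Mccc1os* had 7 to 13 raw counts per library, against 169 to 317 for *Mccc1*, and counts of *B230207O21Rik* and *Gm15952* were not used here. The counts of *Mccc1os* likewise do not bound its part in those of *Mccc1*.

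*Mccc2* (Entrez Gene 78038, chromosome 13, 99948530 to 100015639) had 214 and 208 normalized counts in Ctrl and 258 and 226 in miR-128OE libraries. These were slightly higher without overlap, and the log2 fold change of 0.20 (95% interval −0.10 to 0.50, adjusted p = 0.292) did not pass the threshold. The count ratio of *Mccc1* to *Mccc2* was 1.35 and 1.59 in Ctrl and 0.648 and 0.643 in miR-128OE libraries, so the alpha subunit had more reads than the beta subunit in both Ctrl libraries and fewer in both miR-128OE libraries. After this step, *Auh*, a methylglutaconyl-CoA hydratase, rose by 0.45 on the log2 scale (adjusted p = 0.0159). This call was lost with DESeq2 (adjusted p = 0.0556) and without miR-128OE library WH10 (0.0653).

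At the propionyl-CoA step, where valine and isoleucine meet odd-chain fatty acids, *Pccb* (Entrez Gene 66904, chromosome 9, 100982032 to 101034898) encodes the beta subunit of propionyl-CoA carboxylase. It had 861 and 828 normalized counts in Ctrl and 1172 and 1139 in miR-128OE libraries, which formed a clearly higher pair. The Ctrl mean of 845 ± 23.5 (SD, n = 2) stood against a miR-128OE mean of 1156 ± 23.6 (SD, n = 2), a rise of 0.45 ± 0.081 (standard error) on the log2 scale (adjusted p = 0.00307). Without miR-128OE library WH9 the log2 fold change was 0.44, and the adjusted p of 0.0524 no longer passed. *Pcca*, the biotin-carrying alpha subunit of the same enzyme, rose from 164 and 127 to 259 and 240 normalized counts (log2 fold change 0.76, adjusted p = 0.0063). The ratio of *Pcca* to *Pccb* counts was 0.190 and 0.154 in Ctrl and 0.221 and 0.210 in miR-128OE libraries. Of the enzymes that then lead to succinyl-CoA, *Mcee*, the epimerase, rose by 0.46 on the log2 scale (adjusted p = 0.0061). *Mmut*, the cobalamin-dependent mutase, rose by 0.87 (adjusted p = 0.000555), from 271 and 271 to 519 and 472 normalized counts.

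**Figure D3:**
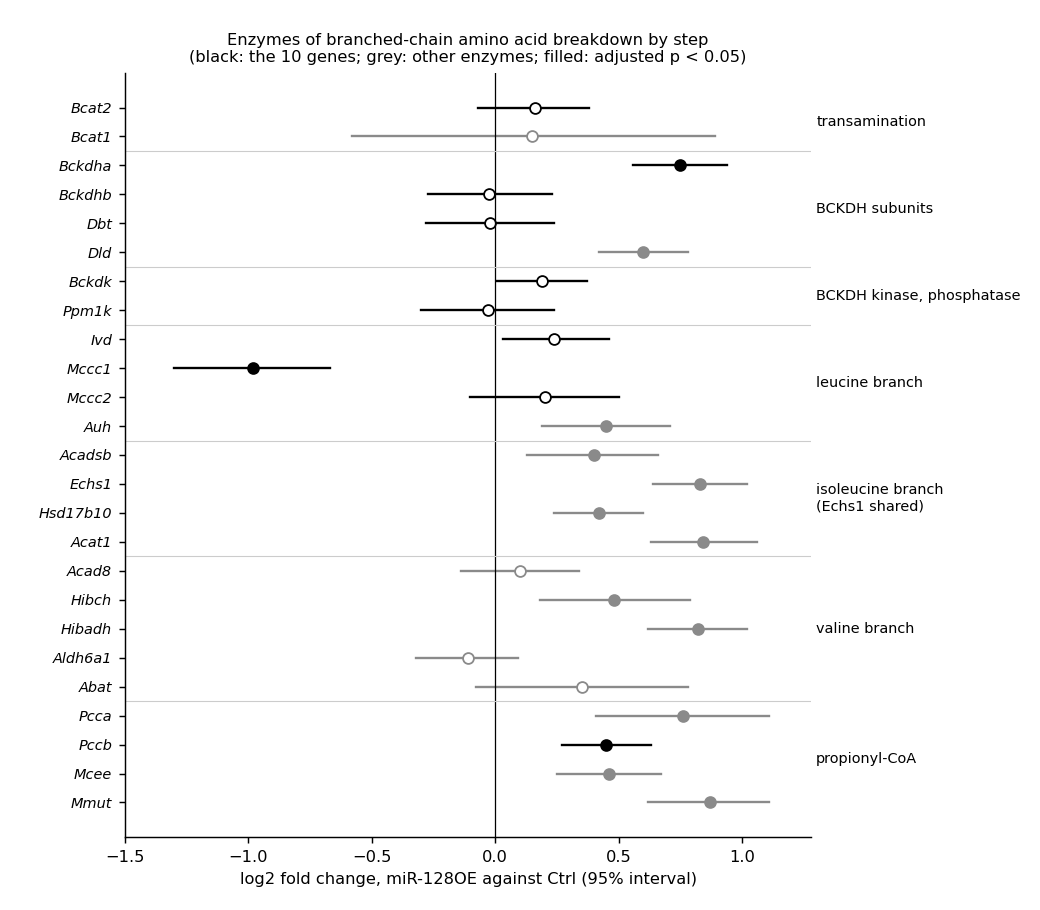
Log2 fold change of miR-128OE against Ctrl hearts (horizontal axis) with 95% intervals for the 25 genes in the order of the steps, the 10 genes in black and the other 15 enzymes in grey, filled where the adjusted p was under 0.05. *Mccc1* at −0.98 is the only gene with a filled point left of 0, and the filled points to the right reach 0.87 at *Mmut*.

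Beyond the 10 genes, 15 other enzymes of the pathway were counted from a list chosen with earlier results of these data known. Of these, 11 passed as higher and 0 as lower, beside 16.5% and 15.0% of all genes tested. The median over all 15 was 0.46 on the log2 scale, and 4 did not pass (*Bcat1*, *Acad8*, *Aldh6a1* and *Abat*). The count was 5 when miR-128OE library WH9 was left out, where *Auh*, *Acadsb*, *Hsd17b10*, *Hibch*, *Pcca* and *Mcee* no longer passed, with adjusted p-values from 0.0612 (*Pcca*) to 0.301 (*Acadsb*). In the isoleucine branch all steps listed were higher. *Acadsb*, the short and branched-chain acyl-CoA dehydrogenase, rose by 0.40 on the log2 scale (adjusted p = 0.0306), a call that was lost with DESeq2 (adjusted p = 0.0581), with upper-quartile factors (0.0518) and with total counts (0.0805). *Hsd17b10*, an X-linked dehydrogenase, rose by 0.42 (adjusted p = 0.00402), and *Acat1*, the thiolase that ends the branch, by 0.84 (adjusted p = 0.000316), from 2598 and 2947 to 5229 and 4710 normalized counts. *Echs1*, a hydratase shared with fatty acid oxidation, rose by 0.83 (adjusted p = 0.000199).

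The valine branch was mixed. *Hibadh*, the hydroxyisobutyrate dehydrogenase, rose by 0.82 on the log2 scale (adjusted p = 0.000265), and *Hibch*, the hydrolase before it, by 0.48 (adjusted p = 0.0228), a call that was lost with total counts (0.0517), without Ctrl library WH7 (0.0717) and without WH10 (0.0602). *Acad8*, isobutyryl-CoA dehydrogenase, had 403 and 458 normalized counts in Ctrl and 468 and 451 in miR-128OE libraries (log2 fold change 0.099, adjusted p = 0.511). *Aldh6a1*, which turns methylmalonate semialdehyde into propionyl-CoA, had 568 and 592 in Ctrl and 548 and 525 in miR-128OE libraries (log2 fold change −0.11, adjusted p = 0.382). The acyl-CoA dehydrogenases of the leucine, isoleucine and valine branches, *Ivd*, *Acadsb* and *Acad8*, thus had log2 fold changes of 0.24, 0.40 and 0.099, and only *Acadsb* passed the threshold.

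Of the transport, cofactor and control genes, 2 of 16 were higher and 0 lower, beside 16.5% and 15.0% of all genes tested. The count of higher genes was 1 with DESeq2 and with total counts, and 1 to 4 with single libraries left out. Among them, *Klf15*, a transcription factor known to drive BCAA breakdown genes in heart, had 70 and 59 normalized counts in Ctrl and 105 and 106 in miR-128OE libraries (log2 fold change 0.69, standard error 0.21, adjusted p = 0.0307). The other was *Mmadhc*, which routes cobalamin towards its enzymes (0.75, adjusted p = 0.000402). The mitochondrial BCAA carrier *Slc25a44* had 216 and 236 normalized counts against 266 and 269 (log2 fold change 0.25, adjusted p = 0.155). At the plasma membrane, the values of *Slc7a5* (log2 fold change 0.40, adjusted p = 0.0672) and its partner *Slc3a2* (0.26, adjusted p = 0.098) did not pass. The same held for *Slc7a8* (−0.74, adjusted p = 0.165), *Slc43a1* (0.027, adjusted p = 0.952) and *Slc43a2* (0.087, adjusted p = 0.724). *Hlcs*, which attaches biotin to carboxylases such as those of *Mccc1* and *Pcca*, did not pass either (0.39, adjusted p = 0.327), nor did *Lias*, which makes the lipoate that the *Dbt* product carries (−0.046, adjusted p = 0.714).

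On the scale of CPM per kilobase of transcript, which allows genes to be compared, the Ctrl level was lowest for *Ppm1k* at 4.60, followed by *Mccc2* at 8.44, *Dbt* at 10.3, *Mccc1* at 10.7 and *Ivd* at 12.3. *Bckdhb* at 18.0, *Bckdk* at 18.7, *Bcat2* at 22.4, *Bckdha* at 25.4 and *Pccb* at 30.9 came next. Of the neighbours in this order, *Dbt* and *Mccc1* overlapped between Ctrl libraries. In miR-128OE libraries, *Mccc1* (5.03 to 5.79) lay below *Mccc2* (9.05 to 10.3) and *Dbt* (9.28 to 11.0), and *Bckdha* (41.8 to 43.8) overlapped with *Pccb* (41.7 to 42.9). These levels rest on the length of the GENCODE transcript with the longest coding sequence, from 1477 bases for *Bckdhb* to 5560 for *Ppm1k*.

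The pyruvate dehydrogenase (PDH) complex, the nearest relative of BCKDH, gave 7 higher and 0 lower genes among 11 with its kinases and phosphatases, and its own subunits *Pdha1*, *Pdhb*, *Dlat* and *Pdhx* had log2 fold changes of 0.71, 0.59, 0.63 and 0.70. Its kinases *Pdk1*, *Pdk2* and *Pdk4* rose by 0.70, 0.47 and 0.61 on the log2 scale. The kinase *Pdk3* (0.33, adjusted p = 0.0923) did not pass, as *Bckdk* (0.19) did not. The phosphatase genes *Pdp1*, *Pdp2* and *Pdpr* (−0.29, 0.054 and −0.085) did not pass either. Of 16 TCA cycle genes, 16 were higher and 0 lower, and their log2 fold changes had a median of 0.65 and a lowest value of 0.38. Of 17 genes of fatty acid oxidation, 14 were higher and 1 (*Cpt1b*) lower, with a median of 0.64. Beside these lists, 16.5% of all genes tested were higher and 15.0% lower. Of the 10 genes, only *Bckdha* (0.75) and *Pccb* (0.45) lay above the lowest value of the TCA cycle list. *Bckdhb*, *Dbt* and *Ppm1k* lay between −0.03 and −0.02. The lowest values of the fatty acid oxidation and PDH-related lists were lower still, at −0.71 (*Cpt1b*) and −0.29 (*Pdp1*). The lists were not tested against each other.

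**Figure D4:**
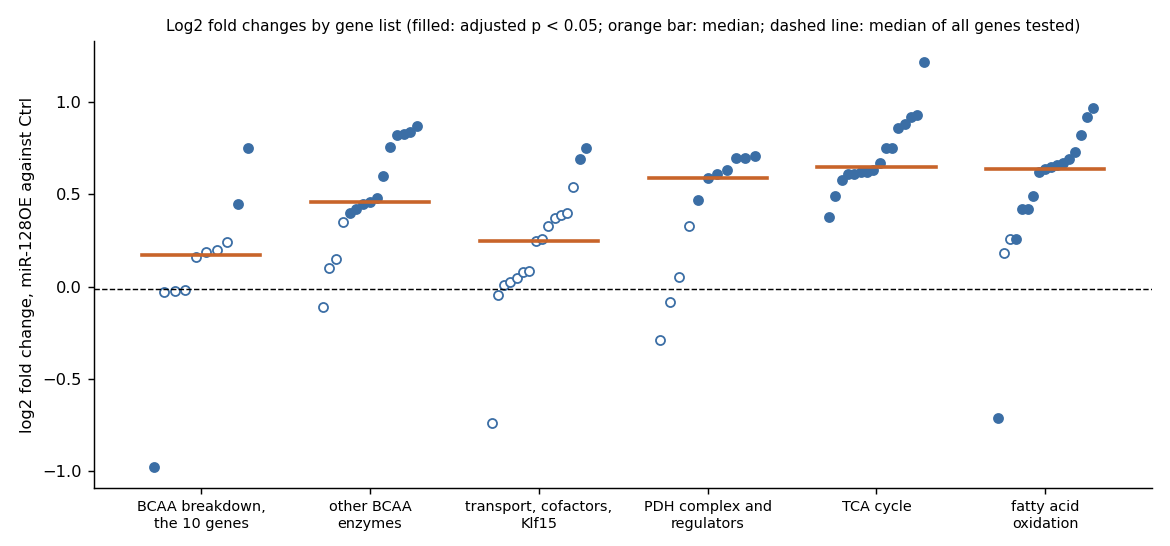
Log2 fold change of miR-128OE against Ctrl hearts (vertical axis) for each gene of the 6 lists, filled where the adjusted p was under 0.05, with the list's median as an orange bar and the median of all genes tested (−0.014) as a dashed line. The 10 genes of BCAA breakdown have a median of 0.17, the other BCAA enzymes 0.46, and the TCA cycle and fatty acid oxidation lists 0.65 and 0.64.

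Brown fat, a tissue that oxidizes BCAAs at a high rate, lies near the neonatal heart, so its markers are given beside these results. Of 6 brown fat genes, 3 passed as higher and 0 as lower in miR-128OE hearts, beside 16.5% and 15.0% of all genes tested. The same shares stand beside the marker counts that follow. The summed level of the 6 brown fat genes was 39.1 to 41.8 CPM in Ctrl and 63.4 to 82.8 CPM in miR-128OE libraries. The genes called were *Ucp1*, *Cidea* and *Adipoq*, with log2 fold changes of 2.69, 0.51 and 1.14. *Cidea* had the most raw counts of the 6 in every library, 336 and 250 in Ctrl against 536 and 485 in miR-128OE. *Ucp1*, the uncoupling protein of brown fat, had 56 and 3 raw counts in Ctrl against 253 and 189 in miR-128OE libraries, and *Elovl3* had 1 count in each library. Their part in the results was not tested. Among the other marker lists, 0 of 5 fibroblast genes, 2 of 4 endothelial genes, 0 of 4 macrophage and leukocyte genes and 1 of 3 smooth muscle and pericyte genes were higher, and 1 of the latter was lower. Of the liver and skeletal muscle lists, *Alb* had 0 to 3 counts and *Myh4* 0 to 4 counts per library, while *Acta1*, which heart muscle also expresses, was the single gene called higher, with a log2 fold change of 1.12. Of 3 red blood cell genes, *Alas2* was higher (1.05) and 2, *Hba-a1* and *Hbb-bt*, had 0 counts in all libraries. How multiply mapped reads were counted is not given, so these zeros do not show that the RNA was absent.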

How the data were processed

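RNA-seq was analyzed in 2 Ctrl and 2 miR-128OE libraries of P7 hearts, grouped by the genotype label. TopHat2 alignments of quality-filtered reads to mm10 (GRCm38) were counted on known genes by the authors, who deposited raw counts per gene and library. Gene models, strand and the treatment of multiply mapped reads are not given in the sources used here. Library totals were 8096870 to 14359838 counts. A floor of 3 counts was 0.209 to 0.371 CPM, which covers counting error only, since reads without molecular identifiers are not independent molecules.

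Entrez identifiers were matched to symbols through RefSeq and GENCODE M21 (24381 of 24454). Genes were kept by filterByExpr (minimum 10 counts, total 15), scaled by TMM and tested with the quasi-likelihood test of edgeR 4.0.16 (R 4.3.3), with Benjamini-Hochberg adjustment over 14266 genes and a threshold of 0.05. Standard errors were the absolute log2 fold change over the root of F. Alternatives were DESeq2 1.42.0, the exact test, other size factors, no filter, a loess offset for GC content and length, and each library left out. A fit of autosomal genes alone was added after seeing the data. The fits were run on simulated data with the same dispersion for every gene, which checks the code and not the error rates in these libraries. 1 enzyme of the list is not reported here. All 10 genes are named, with all other listed enzymes and those of other lists that passed or complete a step. The genes, lists and tests were chosen with earlier results of these data known. RefSeq gave the *miR-128-3p* sequence, and matches, ratios and summaries were made in Python 3.11.15 (scipy 1.17.1).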

Additional observations from a re-analysis of the deposited data

How the results depend on the processing

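The calls of *Bckdha* (log2 fold change 0.63 to 0.76), *Mccc1* (−1.08 to −0.85) and *Pccb* (0.35 to 0.46) held under the 8 alternatives that keep all libraries. With single libraries left out, those of *Bckdha* (0.73 to 0.80) and *Mccc1* (−1.08 to −0.87) held. Leaving out single libraries, the 10 genes gave 1 to 3 higher calls, the other pathway enzymes 5 to 11, transport, cofactor and control genes 1 to 4, and fatty acid oxidation 8 to 16 higher and 0 to 1 lower. PDH-related genes gave 0 to 1 lower, and all genes 897 to 2654 higher and 667 to 2384 lower, both lowest without miR-128OE library WH9. DESeq2 gave 1 higher transport, cofactor and control gene, 0 lower fatty acid oxidation genes and 1403 lower genes in all, against 2143. Scaling by total counts gave 1 higher transport, cofactor and control gene and 1 lower PDH-related gene, moved the median of all genes to −0.11 and gave 1611 higher and 2948 lower genes (35.3% of calls higher, against 52.3%). The log2 fold change changed sign, in genes not called, for *Bckdhb* without Ctrl library WH7 (0.0038, range over left-out libraries −0.044 to 0.0038), *Dbt* without WH10 (−0.13 to 0.12), *Ppm1k* with the GC and length offset (0.044) and without WH10 (−0.097 to 0.066), *Bcat1* without WH8 (−0.11) and without WH9 (−0.24 to 0.56), and *Acad8* with total counts (−0.00052). The cause was not tested. No paired analysis was possible because the labels give the groups no shared replicate numbers. Depth limits genes with few counts, such as *Bcat1* with 30 to 80 per library.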

Other observations

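*Mccc1* was read beside the other biotin-dependent carboxylase genes, a group chosen after its values were seen. *Acaca* and *Acacb*, the acetyl-CoA carboxylases, had log2 fold changes of −0.48 (adjusted p = 0.0179) and −0.52 (adjusted p = 0.0127), and both were called lower in miR-128OE hearts by edgeR's quasi-likelihood test. *Pcca* was called higher, with a log2 fold change of 0.76 (adjusted p = 0.0063), and *Pcx*, pyruvate carboxylase, had one of −0.011 (adjusted p = 0.974). Of these 5 genes, 3 were thus lower, *Mccc1* itself included, 1 was higher and 1 did not pass. Among all genes tested, 15.0% were lower and 16.5% higher.

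The genes within 1 Mb on each side of *Mccc1* on chromosome 3 were also chosen after its values were seen. Of 17 such genes, 11 were tested, of which 4 were lower, 1 was higher and 6 did not pass, beside 15.0% lower and 16.5% higher over all genes tested. Lower genes were *Acad9*, an acyl-CoA dehydrogenase needed for assembly of respiratory complex I, at −0.69 on the log2 scale (adjusted p = 0.000534), *Ccna2*, a cyclin, −0.50 (0.0165), *Dcun1d1* −0.29 (0.0396) and *Anxa5* −0.27 (0.0271). *Exosc9*, an exosome subunit, was higher (0.54).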
